A study of Mus musculus with 9 samples.

Results

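The genes described here encode the subunits of oxidative phosphorylation, the mitochondrial machinery that turns the energy of reduced cofactors into ATP. They were chosen by symbol alone: every gene whose symbol begins with Nduf, Atp5 or Uqcr, or with Cox followed by a digit from 4 to 8, plus Sdha, Sdhb, Sdhc, Sdhd, Cyc1 and Cycs. The rule found 100 of the 26214 genes listed. By complex, 37 belonged to complex I, 4 to complex II, 9 to complex III, 20 to complex IV and 17 to complex V. Cytochrome c (Cycs), 8 complex I assembly factors (Ndufaf genes) and 4 copies with related symbols made up the rest. Of the 100 members, 94 had a mean normalized value of at least 10 over the 8 libraries compared and were tested. The 6 others were Ndufs5, Cox7b2 and Cox8c, listed at 0 in all 9 libraries, and the low copies Ndufa11b, Ndufs5-ps and Cox7c-ps1.

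RNA-seq was performed on stromal cells of male C57BL/6J mice, 8 to 12 weeks old, collected on day 1 after an injection into the quadriceps. Adipose stromal cells (ASCs) came from subcutaneous adipose tissue (ScAT) after NaCl injection, with 3 libraries. Fibro-adipogenic progenitors (FAPs) came from quadriceps after NaCl injection, with 2 libraries, and injured FAPs from quadriceps injected with glycerol, which damages myofibers, with 3 libraries. ASCs and FAPs were sorted magnetically as CD31-/CD45-/Sca-1+ cells, and per the methods the libraries were made from cells pooled from 3 animals. A single CD31+CD45+ library from glycerol-injected quadriceps had no replicate and entered no test. Between 13091077 and 27481573 reads were assigned to genes per library, the lowest in the CD31+CD45+ library and the next lowest, 24052508, in FAPs. Values are deposited normalized counts (reads divided by a size factor), and 3 reads corresponded to a value of 2.29 to 4.71 depending on the library. Whether each library had its own pool or all shared 1 pool was not stated, so the p-values measure only the spread between libraries and not between animals.

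Genes that define stromal cells were high in every ASC and FAP library. Pdgfra was at 10837, 15083 and 13043 in ASCs, 17754 and 17756 in FAPs and 23649, 25268 and 23236 in injured FAPs, against 119 in the CD31+CD45+ library. All 8 stromal markers listed were above 0 in each library, with the highest value for Col1a1. Of these 8, 1 was higher and 5 lower in injured FAPs than in FAPs (median log2 fold change -0.96). Against ASCs, 1 was higher and 6 lower in injured FAPs (median -1.44). In ASCs against FAPs, 4 were higher and 1 lower (median 0.58). Of all genes tested, 24.9% and 27.7%, 25.0% and 25.8%, and 23.4% and 23.8% were higher and lower in the same order. These shares apply to the marker lists below too. Named after their values were seen, Ly6a was the 1 higher in injured FAPs than in FAPs and Pdgfra the 1 higher than in ASCs, Cd34, Dcn, Lum, Col1a1 and Col1a2 were lower in injured FAPs than in FAPs, and in ASCs against FAPs Ly6a, Cd34, Col1a1 and Col1a2 were higher and Pdgfrb lower. Ly6a lost its call against FAPs in injured FAPs without FAP library 2 (0.50), and Col1a1 in ASCs without ASC library 1 (0.71), FAP library 1 (0.63), or injured FAP library 2 or 3 (0.79 in both). After quantile normalization, 3 of the 8 were lower in injured FAPs than in FAPs and 2 than in ASCs. In ASCs against FAPs, Cd34 (-0.07), Col1a1 (0.11) and Col1a2 (-0.12) then lost their calls. With a common library total these calls were lost as well (0.10, 0.22 and 0.31 in the same order). Among the genes tested, 122 were at 0 in both FAP libraries, against 12 at 0 in every ASC library and 11 in every injured FAP library; none of the 94 members tested was among them. Whether low values had been filtered to 0 before deposit was not stated.

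In the inner mitochondrial membrane, complexes I and II take electrons from NADH and succinate, complex III passes them through cytochrome c to complex IV, and complex IV hands them to oxygen. The proton gradient built by complexes I, III and IV drives complex V, the ATP synthase. Complex IV subunits in particular exist as tissue isoforms, some of them typical of heart and skeletal muscle, so that isoform levels differ between cell types of a muscle. A further 13 subunits are encoded by mitochondrial DNA; the deposited table lists none of them under its mt- symbol.

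The members' summed values made up a larger share of the library in injured FAPs than in the other groups. The share was 0.319% and 0.297% in FAPs, 0.562%, 0.547% and 0.594% in injured FAPs, and 0.249%, 0.298% and 0.246% in ASCs. All 3 injured libraries lay above all ASC and FAP libraries, whereas 1 ASC library lay between the FAP libraries. Complex V supplied the most in each library, with 0.106% and 0.0994% in FAPs and 0.224%, 0.220% and 0.239% in injured FAPs. A share of the library also moves with the rest of it: the 100 genes with the highest values in each library held 40.3% to 43.1% of ASC values, 35.9% and 36.3% of FAP values and 24.7% to 26.1% of injured FAP values. For a bulk population, fewer cells of a type and less RNA per cell cannot be told apart.

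**Figure D1:**
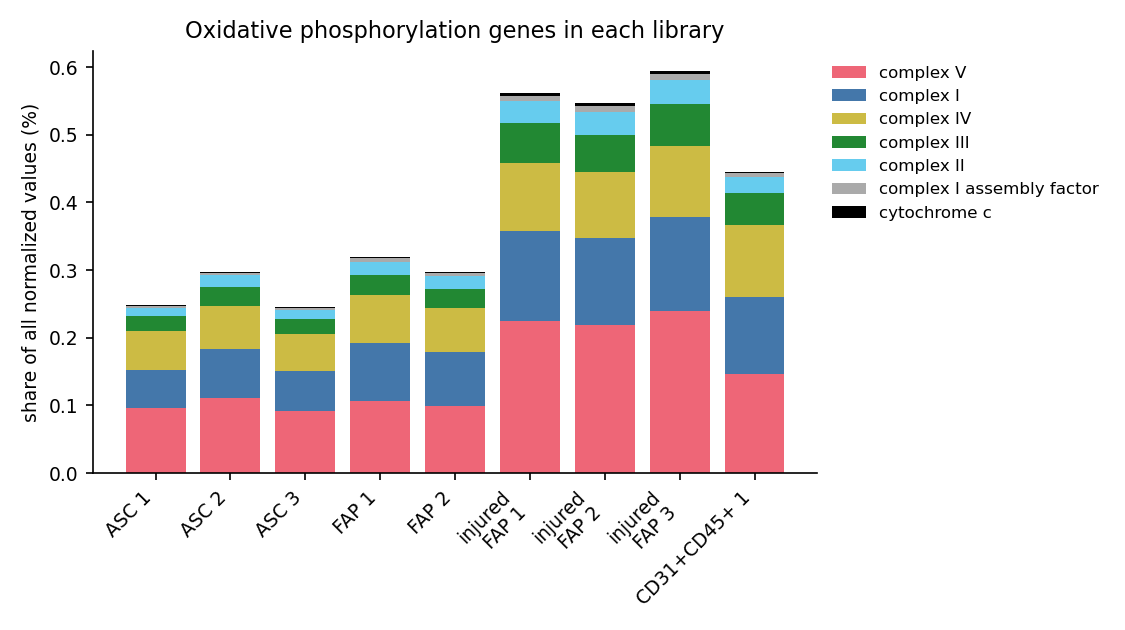
Share of all normalized values (%, y axis) taken by the members in each of the 9 libraries (x axis), stacked by complex; the 4 copies are not drawn. The injured FAP bars reach 0.547% to 0.594%, above 0.319% and 0.297% in FAPs.

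Levels of the members were compared with each other only per kilobase of the main transcript, a scale that depends on the transcript length used. In the mean over the 8 libraries, the highest subunit per kilobase was Ndufa3 in complex I (1562), Sdha in complex II (882), Uqcrh in complex III (1947), Cox6a1 in complex IV (5616) and Atp5b in complex V (5508). Apart from Atp5b the order was not the same in each group: Ndufa7 was highest of complex I in FAPs, Sdhb of complex II in ASCs, and Uqcrb of complex III and Cox8a of complex IV in injured FAPs. The medians per kilobase were 586 for complex I, 712 for complex II, 1093 for complex III, 1350.5 for complex IV and 1365 for complex V. Among the members tested, complex IV spanned the widest range, down to 17.4 for the muscle isoform Cox6a2. Cycs, whose annotated transcript is long, stood at 204.

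The comparison of injured FAPs with FAPs sets the cells sorted from muscle after glycerol against those sorted after NaCl. The paper proposes that part of the injured population came from ScAT, so the cells compared may differ in origin, which was not tested. Below, rose and fell mean higher or lower in injured FAPs. Of the 94 members tested, 59 were higher in injured FAPs, against 24.9% of all 13601 genes tested in that direction, and 6 were lower, against 27.7% of all genes. A gene was called at a Benjamini-Hochberg (BH) adjusted p under 0.05 in limma with an absolute log2 fold change over 0.58. The median log2 fold change of the members was 0.74, and that of all genes tested was -0.05. Under the 5 other scalings and count models tried, the median of the members exceeded that of all genes by 0.79 to 0.81; with values scaled to a common library total, the median of all genes moved to 0.08 and that of the members to 0.87.

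**Figure D2:**
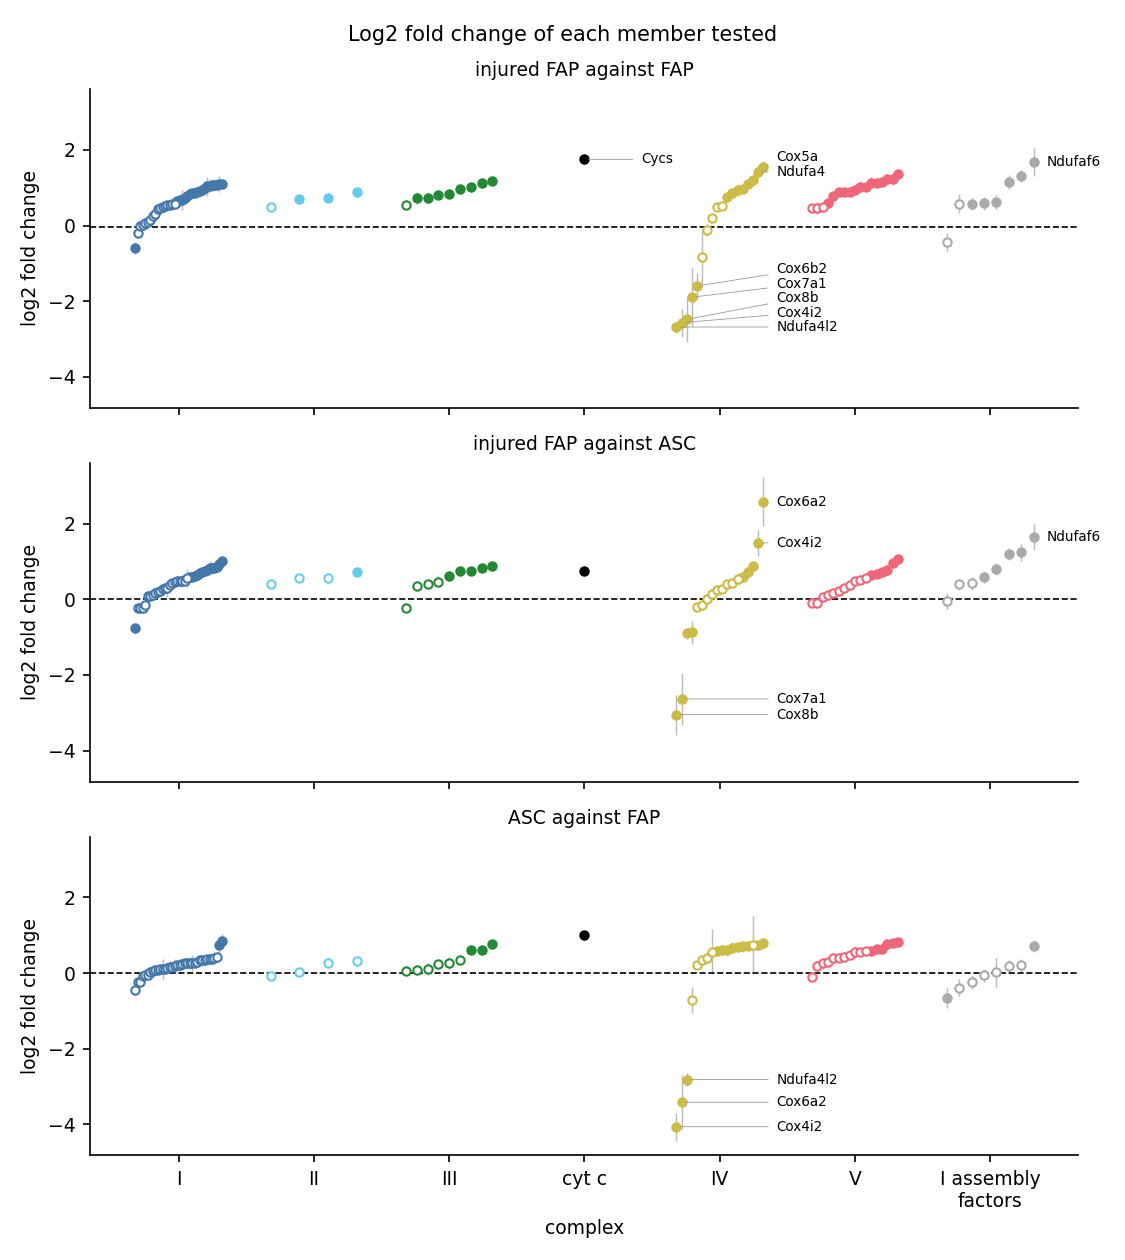
Log2 fold change (y axis) of 93 of the 94 members tested, by complex (x axis), in the 3 comparisons; the copy Ndufb4c is not drawn. Filled points passed the test, open points did not, bars are SE and the dashed line is the median of all genes tested; the median of the members was 0.74 in injured FAPs against FAPs, 0.48 in injured FAPs against ASCs and 0.27 in ASCs against FAPs, and with a common library total the last turned to -0.29.

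In complex V, the ATP synthase, 14 of 17 subunits rose and none fell, and all 17 log2 fold changes were positive, from 0.46 to 1.36 (median 0.93). Atp5b, which encodes the catalytic beta subunit of the F1 head, was at 6547 and 5908 in FAPs, 14838, 14304 and 14768 in injured FAPs and 9419, 9751 and 8897 in ASCs. The injured libraries were the highest, the FAP libraries the lowest, and no groups overlapped. Its log2 fold change between injured FAPs and FAPs was 1.23 ± 0.10 (SE, limma, BH-adjusted p = 2.99e-06), higher in 3 of 3 injured libraries. The genes of subunit c, which forms the rotor ring, were chosen after their values were seen: Atp5g2 was at 676 and 572 in FAPs and 1656, 1446 and 1712 in injured FAPs, and the log2 fold changes of Atp5g1, Atp5g2 and Atp5g3 were 1.24, 1.36 and 1.14. For each of these 3 genes the injured libraries were above all others. Atp5l and Atp5md encode small membrane subunits of the ATP synthase. Atp5l was at 567 and 482 in FAPs and 967, 875 and 1091 in injured FAPs (0.90 ± 0.13 by limma, BH-adjusted p = 0.000146), and Atp5md at 414 and 404 and 774, 722 and 756. The 3 subunits that did not pass, named after their values were seen, were Atp5d (0.48), Atp5e (0.47) and Atp5j (0.46).

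The electron carriers rose too. Cycs, the soluble carrier between complexes III and IV, was at 309 and 256 in FAPs, 857, 965 and 1027 in injured FAPs and 601, 541 and 542 in ASCs. Every injured library exceeded every ASC library, and every ASC library exceeded both FAP libraries. With a log2 fold change of 1.75 ± 0.13 (SE, limma, BH-adjusted p = 2.19e-06), Cycs had the largest rise of the 94 members between injured FAPs and FAPs. Cyc1, the heme-bearing cytochrome c1 of complex III, was at 857 and 785 in FAPs, 1845, 1665 and 1885 in injured FAPs and 1047, 1049.9 and 832 in ASCs. Here ASC and FAP libraries overlapped while the injured libraries lay above both (1.13 ± 0.13 against FAPs by limma, BH-adjusted p = 2.82e-05). Of the 9 complex III members, 8 rose (median 0.84). The exception, Uqcrh, encodes the hinge protein beside cytochrome c1 and was at 778 and 706 in FAPs and 1129.8, 995 and 1107 in injured FAPs. Its log2 fold change of 0.54 fell short of the threshold, which it passed without FAP library 1 (0.61), without injured FAP library 2 (0.59), in edgeR (0.58) and with a common library total (0.67).

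Complex II, which also works in the TCA cycle, had 3 rises among 4 subunits (median 0.71). Sdha, the flavoprotein that oxidizes succinate, was at 2054 and 2009.5 in FAPs, 3300.1, 3408 and 3447 in injured FAPs and 1817, 2238 and 2178 in ASCs. The injured libraries were above all others, and the ASC range enclosed the FAP values. The log2 fold change against FAPs was 0.74 ± 0.11 (SE, limma, BH-adjusted p = 0.000168). Sdhb (0.69) and Sdhd (0.90) also rose, and Sdhc (0.49) did not reach the fold threshold; these 3 were named after their values were seen.

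Complex I, the NADH dehydrogenase, was more mixed: 19 of 36 subunits tested rose, 1 fell and the median was 0.65. Its log2 fold changes ran from -0.60 to 1.11. Ndufs1, the largest iron-sulfur subunit and the upper end of that range, was chosen after its values were seen; it was at 658 and 598 in FAPs, 1292, 1329.9 and 1435 in injured FAPs and 576, 717 and 744 in ASCs. Injured libraries were above the other groups, which overlapped. Ndufv3, an accessory subunit of the NADH-binding module likewise chosen afterwards, was the single fall, with 972 and 957 in FAPs and 626, 675 and 611 in injured FAPs (-0.60 ± 0.15 by limma, BH-adjusted p = 0.00537). The call of Ndufv3 was lost in edgeR and DESeq2, with a common library total, with replicate number as a block and without injured FAP library 3. Ndufa3, the highest complex I subunit per kilobase in the mean of the 8 libraries, was at 757 and 533 in FAPs and 953, 884 and 890.1 in injured FAPs. The FAP libraries were far apart for Ndufa3, and its log2 fold change of 0.52 passed the threshold only with a common library total (0.65) or without FAP library 1 (0.77).

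Of the 8 Ndufaf genes, whose products help build complex I and are absent from the finished enzyme, 6 rose and none fell (median 0.60). Ndufaf6 was at 40.9 and 27.3 in FAPs, 119, 95.3 and 114 in injured FAPs and 44.8, 46.4 and 18.8 in ASCs. ASC and FAP values overlapped and every injured value was above them. Its rise was the largest among the Ndufaf genes, with a log2 fold change of 1.68 ± 0.38 against FAPs (SE, limma, BH-adjusted p = 0.00302). Ndufaf1 was at 93.2 and 104 in FAPs, 153, 133 and 159 in injured FAPs and 50.1, 88.3 and 54.0 in ASCs. Its 3 groups did not overlap, with ASCs lowest, but the difference between injured FAPs and FAPs missed the test (log2 fold change 0.58 by limma, BH-adjusted p = 0.0674) and passed in edgeR (0.63), DESeq2 (0.60) and after quantile normalization (0.82).

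**Figure D3:**
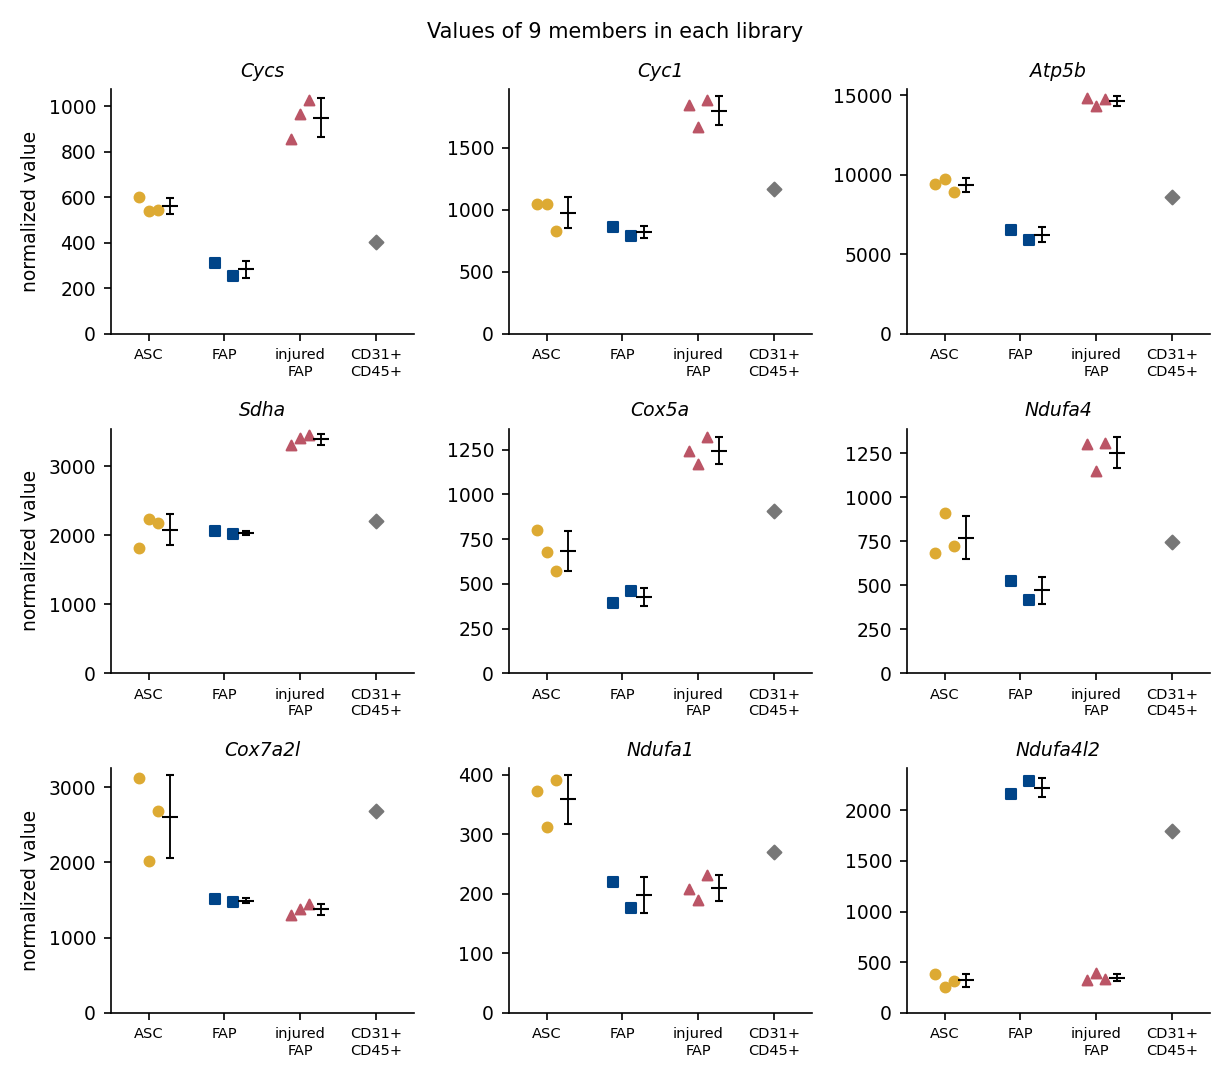
Normalized values (y axis, from 0) of 9 members in each library by group (x axis); black marks are mean ± SD, and the CD31+CD45+ library is single. Cycs, Cyc1, Atp5b, Sdha, Cox5a and Ndufa4 were highest in the 3 injured FAP libraries, Cox7a2l and Ndufa1 were higher in ASCs than in FAPs and injured FAPs, and Ndufa4l2 was high in FAPs.

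In complex IV, cytochrome c oxidase, 8 of 18 subunits tested rose in injured FAPs against FAPs and 5 fell (median 0.50). The rises made up 44.4%, against 24.9% of all genes tested. The falls made up 27.8%, near the 27.7% of all genes tested. Cox5a, a nuclear-encoded subunit on the matrix side, was at 392 and 462 in FAPs, 1244, 1170.2 and 1322 in injured FAPs and 799.6, 681 and 574 in ASCs. No groups overlapped, and FAPs were lowest. The log2 fold change against FAPs was 1.55 ± 0.15 (SE, limma, BH-adjusted p = 9.97e-06). Ndufa4, named for complex I and found with complex IV, was at 526 and 417 in FAPs, 1304, 1151 and 1307 in injured FAPs and 681, 909 and 722 in ASCs. Its order was the same as that of Cox5a (1.42 ± 0.15 by limma, BH-adjusted p = 2.1e-05). Cox6b1, on the side facing cytochrome c, rose as well, from 1250.4 and 1081 in FAPs to 2098, 2046 and 2149 in injured FAPs.

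All 5 falls of complex IV were isoforms that are low in most tissues or typical of a few. Ndufa4l2, a paralogue of Ndufa4 known as a hypoxia-responsive gene and as a gene of pericytes, was at 2159 and 2289 in FAPs, 321, 389 and 330.3 in injured FAPs, 385, 258 and 316 in ASCs and 1792 in the CD31+CD45+ library. The FAP and CD31+CD45+ libraries were several times above the ASC and injured FAP libraries, which overlapped. Its log2 fold change was -2.68 ± 0.17 between injured FAPs and FAPs (SE, limma, BH-adjusted p = 8.44e-07) and -2.81 ± 0.17 between ASCs and FAPs (BH-adjusted p = 5.28e-07). Ndufa4l2 shares 32 exon bases with Shmt2 on the opposite strand, and the strand of the libraries was not stated.

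Per kilobase, Ndufa4l2 exceeded Ndufa4 in FAPs and was below it in ASCs and injured FAPs. In value per kilobase, Ndufa4l2 was at 2311 and 2451 in FAPs, 344, 417 and 354 in injured FAPs and 412, 276 and 339 in ASCs. Ndufa4 stood at 862 and 683 per kilobase in FAPs, 2138, 1887 and 2143 in injured FAPs and 1117, 1491 and 1183 in ASCs. In the CD31+CD45+ library the values per kilobase were 1919 for Ndufa4l2 and 1225 for Ndufa4.

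**Figure D4:**
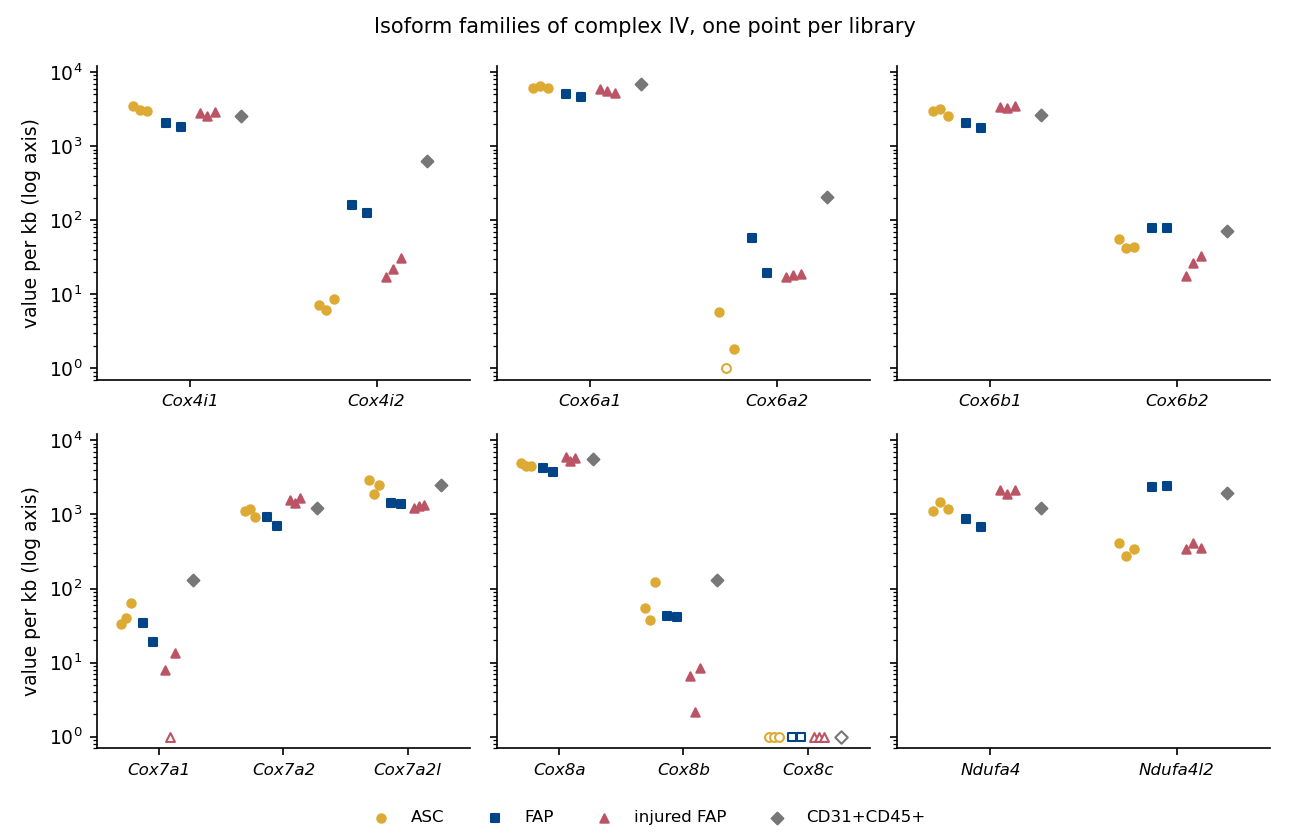
Value per kilobase (log y axis) of 6 complex IV isoform families, 1 point per library, with open symbols at 1 for genes listed at 0. Ndufa4l2 lay above Ndufa4 in both FAP libraries and below it in ASCs and injured FAPs, and in the other families the isoforms Cox4i2, Cox6a2, Cox6b2, Cox7a1 and Cox8b lay below their common counterparts in every library.

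Cox4i2, the hypoxia-responsive alternative to the common Cox4i1, was lower per kilobase than Cox4i1 in each library. It was at 118 and 92.2 in FAPs (124 and 98 reads), 12.6, 16.3 and 22.9 in injured FAPs (16, 21 and 30 reads) and 5.27, 4.53 and 6.28 in ASCs (4, 4 and 5 reads). The 3 groups did not overlap, FAPs being highest and ASCs lowest. The log2 fold changes were -2.57 ± 0.37 for injured FAPs against FAPs, -4.06 ± 0.37 for ASCs against FAPs and 1.49 ± 0.33 for injured FAPs against ASCs (SE, limma, BH-adjusted p = 0.000171, 9.17e-06 and 0.0026), the last depending on the pseudocount of 1 (0.90 with 8). Cox4i1 was at 1559 and 1399 in FAPs, 2154, 1969 and 2192 in injured FAPs and 2664, 2322 and 2299.8 in ASCs. Per kilobase, Cox4i1 was at 2039 and 1829 in FAPs against 161 and 126 for Cox4i2. Against FAPs, Cox4i1 did not pass in injured FAPs (0.51), but it passed without FAP library 1 (0.59) and with a common library total (0.64).

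Cox6a2, Cox7a1 and Cox8b, the heart and skeletal muscle isoforms, were counted by few reads. Cox6a2 was at 39.0 and 13.2 in FAPs (41 and 14 reads), 11.8, 12.4 and 13.0 in injured FAPs (15, 16 and 17 reads) and 3.95, 0 and 1.26 in ASCs (3, 0 and 1 reads). It was low in all ASC libraries and separated them from both kinds of FAP. The log2 fold change was -3.41 for ASCs against FAPs and 2.58 for injured FAPs against ASCs (limma, BH-adjusted p = 0.00219 and 0.00486), sizes that depend on the pseudocount of 1: with 8 they were -1.72 and 1.09. Cox6a2 reached the minimum mean of 10 only through uninjured FAPs and was not tested without FAP library 1. The filter thus favoured lower values in the other groups, and both calls were also made with no filter. Between injured FAPs and FAPs the log2 fold change of -0.83 did not pass the test (limma, BH-adjusted p = 0.326). Cox6a2 shares 70 exon bases with Itgad on the opposite strand.

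Cox8b was at 15.2 and 15.1 in FAPs (16 and 16 reads), 2.35, 0.775 and 3.05 in injured FAPs (3, 1 and 4 reads) and 19.8, 13.6 and 43.9 in ASCs (15, 12 and 35 reads). Injured libraries were the lowest, and ASC and FAP libraries overlapped. Its log2 fold change was -2.48 ± 0.59 against FAPs (SE, limma, BH-adjusted p = 0.00393) and -3.05 ± 0.53 against ASCs (BH-adjusted p = 0.000493). With a pseudocount of 8 these were -1.21 and -1.65. Cox8b reached the minimum mean of 10 only through ASCs and was not tested without ASC library 3. The filter thus favoured lower values in the other groups, and both calls were also made with no filter. Cox7a1 was at 13.3 and 7.53 in FAPs (14 and 8 reads), 3.14, 0 and 5.34 in injured FAPs (4, 0 and 7 reads) and 13.2, 15.9 and 25.1 in ASCs (10, 14 and 20 reads). It too was lowest in the injured libraries. Against FAPs its fall of -1.89 just passed (limma, BH-adjusted p = 0.0482) and was lost under 11 of the 17 alternatives that gave it a value. Those included leaving out FAP library 1 (-1.52), FAP library 2 (-2.27), injured FAP library 1 (-2.13) or injured FAP library 2 (-1.11). Against ASCs the log2 fold change was -2.63 ± 0.68 (limma, BH-adjusted p = 0.00591), or -1.27 with a pseudocount of 8. Cox7a1 reached the minimum mean only through ASCs and was not tested without ASC library 2 or 3. The filter thus favoured lower values in the other groups. With no filter the call against ASCs was made and that against FAPs was not.

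Cox6b2, best known from testis, was at 45.6 and 46.1 in FAPs, 10.2, 15.5 and 19.1 in injured FAPs and 32.9, 24.9 and 25.1 in ASCs. The 3 groups did not overlap, with injured FAPs lowest (-1.60 ± 0.34 against FAPs by limma, BH-adjusted p = 0.00207). Against ASCs the difference of -0.88 was lost without ASC library 1 (-0.75), injured FAP library 1 (-0.64) or injured FAP library 2 (-0.92), and also in edgeR (-0.79), DESeq2 (-0.87), with replicate number as a block (-0.88) and with a common library total (-0.21). Its common counterpart Cox6b1 was at 2023 and 1749 per kilobase in FAPs, where Cox6b2 was at 78.0 and 78.8 per kilobase. The testis isoform Cox8c was listed at 0 in every library.

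Among the common isoforms, Cox7a2 and Cox8a were high in all groups. Cox7a2 was at 616 and 465 in FAPs, 1033, 954 and 1107 in injured FAPs and 728, 787 and 610.1 in ASCs. The injured libraries were above the rest (0.94 ± 0.15 against FAPs by limma, BH-adjusted p = 0.000353), and ASC and FAP values overlapped. Against ASCs the log2 fold change of Cox7a2 was 0.55, short of the threshold, which it passed without ASC library 2 (0.63) or injured FAP library 2 (0.60), with a common library total (1.24) or 75th percentile (0.66) and in edgeR (0.63). Cox8a was at 2358 and 2048 in FAPs, 3273, 2852 and 3206 in injured FAPs and 2728, 2446 and 2504 in ASCs. Its groups did not overlap, but its log2 fold change against FAPs, 0.50, passed only without FAP library 1 (0.60) or with a common library total (0.63). Cox6a1, the highest complex IV subunit per kilobase in the mean of the 8 libraries, was at 2881 and 2663 in FAPs, 3361, 3147 and 3002 in injured FAPs and 3479, 3671 and 3451 in ASCs. Its log2 fold changes passed in no comparison, the largest being 0.35 for ASCs against FAPs.

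Markers of other cells of a muscle were counted beside these isoforms. The 10 pericyte and smooth muscle markers summed to 20741 and 17936 in FAPs, 9504, 9096 and 9756 in injured FAPs, 5334, 3432 and 4236 in ASCs and 80394 in the CD31+CD45+ library, with the highest value in FAPs for Rgs5 (6148 and 4583). Like Ndufa4l2 and Cox4i2, they were higher in FAPs than in injured FAPs and ASCs: of 9 tested, 8 were lower in injured FAPs than in FAPs (median log2 fold change -1.76), 8 were lower in ASCs than in FAPs (median -3.73), and 6 were higher and 2 lower in injured FAPs than in ASCs (median 1.70). The 2 lower in injured FAPs than in ASCs, named after their values were seen, were Kcnj8 and Abcc9; Kcnj8 lost its call without injured FAP library 1 (-0.75). Cnn1 reached the minimum mean of 10 only through FAPs, so the filter favoured lower values in the other groups. Both its calls against FAPs were also made with no filter. That in ASCs was lost without FAP library 1 (-1.85) and after quantile normalization (-1.70). Higd1b was at 0 in all 3 ASC libraries and above 0 elsewhere. Their part in the changes of Ndufa4l2 and Cox4i2 was not tested.

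Skeletal muscle fibre markers, 14 in all, summed to 1081 and 1229 in FAPs, 364, 396 and 301 in injured FAPs, 195, 152 and 192 in ASCs and 4733 in the CD31+CD45+ library. The highest value was that of Acta1 or Tnnt3, depending on the library, and Acta1 was at 271 and 246 in FAPs and 92.6, 89.9 and 69.4 in injured FAPs. Of 11 tested, 8 were lower in injured FAPs than in FAPs (median -1.88), 10 were lower in ASCs than in FAPs (median -3.81) and 8 were higher in injured FAPs than in ASCs (median 2.38). Without FAP library 1, 4 were lower in injured FAPs than in FAPs, and without FAP library 2, 3. Myh1, Mb, Tnni2, Tnnc2 and Pvalb reached the minimum mean of 10 only through FAPs, so the filter favoured lower values in the other groups; their calls were also made with no filter. Myh1, Myh2, Myh4, Tnni2, Tnnc2 or Pvalb were at 0 in ASC library 1 or 3, and Ttn in injured FAP library 3. Cox6a2 was likewise lowest in ASCs, while Cox7a1 and Cox8b were lowest in injured FAPs; the part of these markers in the values of the muscle isoforms was not tested.

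**Figure D5:**
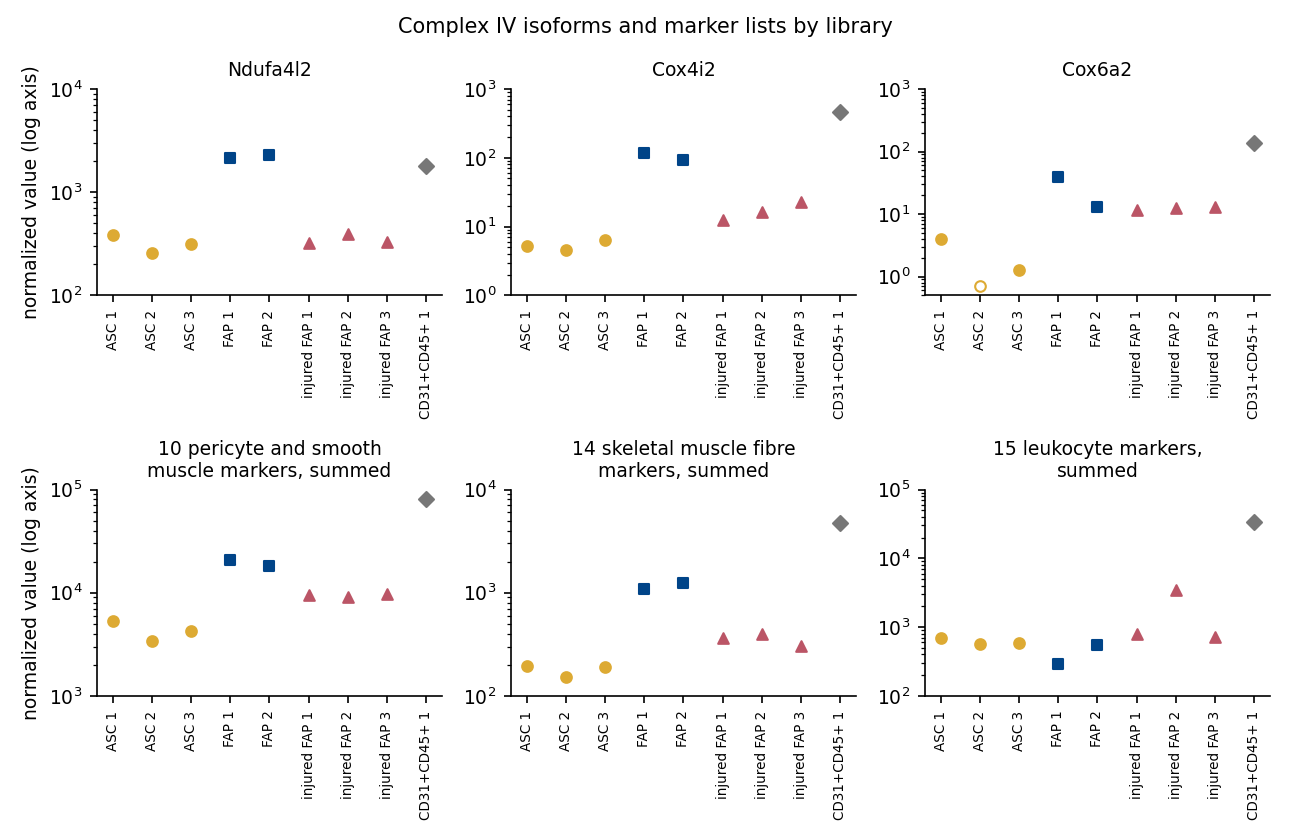
Normalized values (log y axis) of Ndufa4l2, Cox4i2 and Cox6a2 and summed values of 3 marker lists in each library (x axis), with an open symbol for a gene listed at 0. FAPs and the CD31+CD45+ library were high for Ndufa4l2, Cox4i2 and the pericyte and muscle fibre markers, and injured FAP library 2 was high for leukocyte markers (3402 against 803 and 718).

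Leukocyte, endothelial and adipocyte markers moved between the groups too. The 15 leukocyte markers summed to 292 and 546 in FAPs, 803, 3402 and 718 in injured FAPs, 684, 571 and 581 in ASCs and 33358 in the CD31+CD45+ library, and 11 of them, Ptprc and Lyz2 included, were at 0 in both FAP libraries. Cd68 had the highest value in FAPs (254 and 477). Of 10 tested, the 7 that were at 0 in both FAP libraries were all called higher in injured than in uninjured FAPs, and 5 of these 7 were called higher in ASCs than in FAPs. Such genes entered the test only through their values in the other groups, so these counts add little to the zeros themselves. The 3 tested that were above 0 in FAPs, Cd68, Itgam and Cd79a, passed in neither in the main fit. They were called lower than in FAPs in injured FAPs for Cd68 without injured FAP library 2 (-0.82) and Cd79a without FAP library 1 (-1.12), and in ASCs for Cd68 without FAP library 1 (-1.44) or injured FAP library 2 (-0.99) and Itgam without ASC library 1 (-2.99). With every library kept, Cd68 was called lower in ASCs with a common library total (-1.56) or 75th percentile (-1.16) and in DESeq2 (-1.04). It was also so called with only the 2 groups fitted and by unadjusted p (-0.99 in both). Of the 10, 6 were higher and 2 lower in injured FAPs than in ASCs (median log2 fold change 2.65). The 14 endothelial markers summed to 7672 and 5324 in FAPs, 2186, 2421 and 1882 in injured FAPs, 6669.8, 5282 and 7050.2 in ASCs and 421097 in the CD31+CD45+ library; Tek had the highest value in FAPs and ASCs, and Vwf, Emcn and Cldn5 were at 0 in both FAP libraries and Pecam1 in FAP library 2. Of 13 endothelial markers tested, 2 (15.4%, against 24.9%) were higher and 7 (53.8%, against 27.7%) lower in injured FAPs than in FAPs (-1.28). In ASCs against FAPs, 3 (23.1%, against 23.4%) were higher and 9 (69.2%, against 23.8%) lower (-2.81). In injured FAPs against ASCs, 9 (69.2%, against 25.0%) were higher and 1 (7.69%, against 25.8%) lower (2.06). The share of all genes tested follows each share of markers. The 8 adipocyte markers summed to 808 and 203 in FAPs, 195, 251 and 175 in injured FAPs and 864, 863 and 700.5 in ASCs, with Fabp4 at the highest value and Cidea at 0 in all ASC libraries; of 4 tested, 3 were higher in ASCs than in FAPs, 1 was lower in injured FAPs than in FAPs and 4 were lower in injured FAPs than in ASCs. Named after their values were seen, the small counts in these lists were Lyz2, Csf1r, Cd14, Cd74 and Fcer1g (higher in ASCs than in FAPs), Csf1r and Cd79a (lower in injured FAPs than in ASCs), Emcn and Cldn5 (at 0 in FAPs, called higher in injured FAPs than in FAPs and, with Tek, in ASCs than in FAPs), Tek (lower in injured FAPs than in ASCs), Ucp1, Adipoq and Plin1 (higher in ASCs than in FAPs and, with Fabp4, lower in injured FAPs than in ASCs) and Plin1 (lower in injured FAPs than in FAPs). Ucp1, Adipoq and Plin1 reached the minimum mean of 10 only through ASCs, and Emcn, Cldn5, Itgam, Adgre1, Tyrobp and Fcer1g only through injured FAPs, so the filter favoured low values in the other groups; the calls of these 9 were also made with no filter. Ucp1 was not tested without ASC library 1. Counts that changed by over 1.5 times on leaving out 1 library were, for leukocyte markers in injured FAPs against ASCs, 3 higher without injured FAP library 2, and 0 lower without ASC library 2, ASC library 3 or injured FAP library 1 and 1 lower without any other, for endothelial markers 5 higher in ASCs and 5 in injured FAPs than in FAPs without FAP library 1, and 2 lower in injured FAPs than in ASCs without ASC library 3, and for adipocyte markers 2 lower in injured FAPs than in FAPs without FAP library 1 or 2. Their part in the members' changes was not tested.

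Injured FAPs were next compared with ASCs, the stromal cells of fat to which the study relates them. Both this comparison and the first use the injured FAP libraries. Of the 94 members tested, 37 were higher in injured FAPs, against 25.0% of all genes tested, and 5 were lower, against 25.8%. The median log2 fold change was 0.48 for the members and 0.02 for all genes. Scaling moved these values: with a common library total the median of all genes was 0.71 and 82 members were higher and 2 lower, and with a common 75th percentile it was 0.14 and 49 were higher and 5 lower. Relative to all genes, the median of the members was 0.43 to 0.47 higher under the 6 scalings and count models.

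By complex, 14 of 36 complex I subunits were higher in injured FAPs than in ASCs and 1 was lower (median 0.49), as were 1 of 4 in complex II (Sdha; median 0.57), 5 of 9 in complex III (0.62), 6 of 17 in complex V (0.47) and 5 of 8 Ndufaf genes (0.70), none of these with a fall. The shares that were higher were 38.9%, 25.0%, 55.6%, 35.3% and 62.5% in the same order, against 25.0% of all genes tested. In complex IV, 5 of 18 were higher and 4 lower (median 0.26). These shares, 27.8% and 22.2%, were near the 25.0% and 25.8% of all genes tested. Named after their values were seen, Uqcrq (0.83), Uqcrc1 (0.75), Uqcrc2 (0.75) and Uqcr11 (0.62) joined Cyc1 in complex III, Cox7b (0.59) joined Cox4i2, Cox6a2, Cox5a and Ndufa4 in complex IV, and Ndufaf5 (1.20), Ndufaf7 (0.81) and Ndufaf2 (0.59) joined Ndufaf6 and Ndufaf1. Cycs was again higher in all 3 injured libraries (0.75 ± 0.12 by limma, BH-adjusted p = 0.000227), as were Cyc1 (0.89), Sdha (0.71), Cox5a (0.87), Ndufa4 (0.71) and Atp5b (0.65). With a common library total these 6 were at 1.45, 1.58, 1.41, 1.57, 1.41 and 1.345, and quantile normalization moved Atp5b to 1.30. Ndufaf6 (1.65 ± 0.34 by limma, BH-adjusted p = 0.00157) and Ndufaf1 (1.24 ± 0.23, BH-adjusted p = 0.000728) were the Ndufaf genes with the largest differences from ASCs, Ndufaf1 at 1.93 with a common library total. For Atp5l and Atp5md the injured FAP and ASC libraries overlapped, and their log2 fold changes were 0.11 and 0.07; with a common library total both passed (0.81 and 0.76).

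Lower in injured FAPs than in ASCs were Cox8b, Cox7a1 and Cox6b2, together with Cox7a2l and Ndufa1. Cox7a2l, grouped here with Cox7a1 and Cox7a2, was at 3117, 2018 and 2686 in ASCs, 1513 and 1471 in FAPs and 1297, 1383 and 1443 in injured FAPs. The ASC libraries varied widely and were all above the FAP and injured FAP libraries. The log2 fold change against ASCs was -0.90 ± 0.14 (SE, limma, BH-adjusted p = 0.000244), and with a common library total it was -0.20 and did not pass. Ndufa1, a small complex I subunit encoded on the X chromosome, was at 373, 313 and 390.4 in ASCs, 219.7 and 176 in FAPs and 208, 189 and 232 in injured FAPs. FAP and injured FAP libraries overlapped, below all ASC libraries (-0.77 ± 0.15 by limma, BH-adjusted p = 0.00102). With a common library total the difference of Ndufa1 was -0.07 and did not pass. Without ASC library 3, 3 members were lower in place of 5.

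ASCs and FAPs of animals injected with NaCl were compared to describe the baseline difference between the stromal cells of fat and muscle. Of the 94 members tested, 22 were higher in ASCs, against 23.4% of all genes tested, which is near the members' own 23.4%; 4 were lower, against 23.8% of all genes. The median log2 fold change was 0.27 for the members and 0.00486 for all genes. This comparison also depended on scaling. With a common library total the median of all genes moved to -0.56, that of the members to -0.29, and 0 members were higher and 16 lower by limma; with a common 75th percentile the median of all genes was -0.16 and 7 members were higher and 6 lower. Of the members called, 84.6% were higher in ASCs with the deposited values, 53.8% with a common 75th percentile and 0% with a common library total. Relative to all genes the median of the members was 0.26 to 0.30 higher in ASCs under the 6 scalings and count models. Without FAP library 1, 2 members were lower in place of 4.

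Complex IV held more calls between ASCs and FAPs than any other complex, with 9 of 18 subunits higher and 3 lower (median 0.59). These were 50% and 16.7%, against 23.4% and 23.8% of all genes tested. In complex V, 6 of 17 were higher (median 0.55), in complex III 3 of 9 (0.27) and in complex I 2 of 36 (0.21). As shares these were 35.3%, 33.3% and 5.56%, against 23.4% of all genes tested, and none of these complexes had a subunit that was lower. Named after their values were seen, Uqcrfs1 (0.62) and Uqcrb (0.61) joined Uqcrh in complex III, and Ndufb1 (0.73) joined Ndufa1 in complex I. For complex II (median 0.15), limma called 0 of 4, and so did edgeR and DESeq2, while Sdhb and Sdhd had unadjusted p-values of 0.0455 and 0.0329 in limma. Among Ndufaf genes, 1 of 8 was higher, Ndufaf2 (0.72, named afterwards), and 1 lower, Ndufaf1 (median -0.02). The members with the largest positive log2 fold changes in ASCs were Cycs (0.99 ± 0.13 by limma, BH-adjusted p = 0.000107), Ndufa1 (0.86 ± 0.17, BH-adjusted p = 0.00133), Atp5md (0.81 ± 0.11, BH-adjusted p = 0.000149) and Atp5l (0.78 ± 0.13, BH-adjusted p = 0.000436), each higher in 3 of 3 ASC libraries. Cox7a2l (0.78), Uqcrh (0.77), Cox4i1 (0.71), Ndufa4 (0.71), Cox5a (0.67), Cox6b1 (0.60) and Atp5b (0.59) were also called higher. With a common library total none of these 11 passed, their log2 fold changes then being 0.43, 0.29, 0.24, 0.22, 0.21, 0.20, 0.15, 0.14, 0.11, 0.04 and 0.02 in the same order, all above the -0.56 of all genes.

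Several of these calls also rested on 1 library or on other choices. Cox5a lost its call without ASC library 1 (0.55) or FAP library 1 (0.55), and Ndufa4 without FAP library 2 (0.54). Cox6b1 lost it without ASC library 1 (0.58), ASC library 2 (0.53) or FAP library 2 (0.50). Atp5b lost it without ASC library 2 (0.56) or FAP library 2 (0.51), and quantile normalization turned its direction (-0.07). A common 75th percentile ended the calls of Cox5a (0.51), Ndufa4 (0.54), Cox4i1 (0.55), Cox6b1 (0.44) and Atp5b (0.42), edgeR those of Cox6b1 (0.56) and Atp5b (0.54), and quantile normalization those of Cox7a2l (0.46), Cox4i1 (0.42) and Cox6b1 (0.36). Ndufaf1 was called lower in ASCs (-0.66 ± 0.25 by limma, BH-adjusted p = 0.0442), a call lost on leaving out any library but ASC library 2, with log2 fold changes of -0.74 without FAP library 1, -0.58 without FAP library 2, -0.51 without ASC library 1, -0.56 without ASC library 3 and the unchanged -0.66 without any of the 3 injured FAP libraries. The call of Ndufaf1 was also lost after quantile normalization (-0.19), with replicate number as a block (-0.64), in DESeq2 (-0.61), with no filter and with only the 2 groups fitted (-0.66 in both), and with a common library total it was kept at -1.22. Cox7a2 (0.60) and Ndufa3 (0.59) passed only without FAP library 1.

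Set side by side for each member, 26 of the 94 (27.7%, against 9.90% of all genes tested) were higher in injured FAPs than in both FAPs and ASCs with no call between ASCs and FAPs, and 6 more (6.38%, against 2.29%) were higher in all 3 comparisons. Another 12 (12.8%, against 6.12%) were higher in both ASCs and injured FAPs than in FAPs, with no call between injured FAPs and ASCs, and 21 (22.3%, against 24.6%) were called in none. These counts depended on scaling: in the same order they were 64, 0, 0 and 6 with a common library total, 38, 1, 3 and 22 with a common 75th percentile, and 28, 3, 9 and 22 after quantile normalization. The 3 comparisons share libraries.

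Other genes of the same pathways were counted from lists, with the share of all genes tested called in the same direction after each count. Of 39 respiratory chain assembly factors tested, beyond the Ndufaf genes, 17 were higher (43.6%, against 24.9%) and 1 lower (2.56%, against 27.7%) in injured FAPs than in FAPs (median log2 fold change 0.51), 19 higher (48.7%, against 25.0%) and 0 lower (0%, against 25.8%) than in ASCs (median 0.63), and 5 higher (12.8%, against 23.4%) and 6 lower (15.4%, against 23.8%) in ASCs than in FAPs (median 0.04). Nubpl, which delivers iron-sulfur clusters to complex I, was at 16.2 and 16.9 in FAPs, 76.1, 65.9 and 71.7 in injured FAPs and 13.2, 19.3 and 21.3 in ASCs. Lrpprc, which stabilizes mitochondrial mRNAs, was at 432 and 373 in FAPs, 961, 960.2 and 1064 in injured FAPs and 481, 490.4 and 426 in ASCs. For both genes the injured libraries were above the others, which overlapped. Taco1, a translational activator for complex IV, was at 91.3 and 100.7, 165, 154 and 195, and 25.0, 55.5 and 41.4 in the same order of groups, and Lyrm7, which matures the iron-sulfur subunit of complex III, at 52.3 and 45.2, 91.0, 89.9 and 93.8 and 15.8, 23.8 and 28.9. Both were lowest in ASCs and highest in injured FAPs without overlap (for Taco1, a log2 fold change of 2.11 for injured FAPs against ASCs). Sdhaf1, an assembly factor of complex II, was lower in ASCs (50.1, 156 and 97.9) than in FAPs (226 and 287), with a log2 fold change of -1.47. Named after their values were seen, Surf1, a complex IV assembly factor, was the single fall in injured FAPs against FAPs (-0.96), and Ttc19, Cox16, Uqcc2, Pet100 and Sco1 were the 5 higher in ASCs than in FAPs. The counts of ASCs against FAPs were 3 higher and 3 lower without FAP library 1, 2 higher without FAP library 2, 0 higher and 18 lower with a common library total, 1 higher with a common 75th percentile, and 8 higher and 2 lower after quantile normalization, and of these 5 only Ttc19 passed without each library in turn. Cox16 lost its call without FAP library 1 (0.71) or 2 (0.76), Uqcc2 (0.56) and Pet100 (0.49) without FAP library 2, and Sco1 without any library but ASC library 3 (0.41 to 0.66). Against FAPs, the call of Sdhaf1 in ASCs was lost without FAP library 2 (-1.30). Against ASCs, 1 assembly factor was lower in injured FAPs without ASC library 2 or 3, 2 after quantile normalization, and 35 were higher with a common library total.

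The enzymes that feed the chain were counted in the same way. Of 18 genes of pyruvate dehydrogenase and the TCA cycle, 13 were higher (72.2%, against 24.9%) and 0 lower (0%, against 27.7%) in injured FAPs than in FAPs (median 0.85), 6 higher (33.3%, against 25.0%) and 1 lower (5.56%, against 25.8%) than in ASCs (0.49), and 3 higher (16.7%, against 23.4%) and 0 lower (0%, against 23.8%) in ASCs than in FAPs (0.23). Citrate synthase (Cs), the entry enzyme of the cycle, was at 2856 and 2824 in FAPs, 7268, 6752 and 6902 in injured FAPs and 2848, 3280.0 and 2974 in ASCs. Fumarase (Fh1) was at 559 and 438 in FAPs and 1249.9, 1217 and 1363 in injured FAPs, and Suclg2, a succinyl-CoA synthetase subunit, at 273 and 259 and 756, 805 and 873. All 3 had their highest values in the injured libraries, with log2 fold changes against FAPs of 1.29, 1.36 and 1.60. Pdhb, a subunit of pyruvate dehydrogenase and the single gene of the list lower in injured FAPs than in ASCs, was instead highest in ASCs (2507, 1664 and 2046), above FAPs (649 and 713) by a log2 fold change of 1.59; Suclg2 and Pdha1, named afterwards, were the others higher in ASCs than in FAPs. After scaling to a common library total, 1 of these genes was higher and 2 lower in ASCs than in FAPs, Pdhb was at 1.02 and lost its call against injured FAPs, and 17 were higher in injured FAPs than in ASCs (10 with a common 75th percentile).

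Of 13 regulators of mitochondrial biogenesis tested, 2 were higher (15.4%, against 24.9%) and 1 lower (7.69%, against 27.7%) in injured FAPs than in FAPs (median 0.15), 4 higher (30.8%, against 25.0%) and 2 lower (15.4%, against 25.8%) than in ASCs (0.41), and 3 higher (23.1%, against 23.4%) and 3 lower (23.1%, against 23.8%) in ASCs than in FAPs (-0.02). Ppargc1a, the coactivator PGC-1alpha, was at 21.9 and 59.3 in FAPs, 13.3, 8.52 and 13.0 in injured FAPs and 5.27, 3.40 and 6.28 in ASCs. It was highest in FAPs and its groups did not overlap, with log2 fold changes of -1.58 for injured FAPs and -2.66 for ASCs against FAPs. Ppargc1a reached the minimum mean of 10 only through FAPs, whose libraries were far apart, so the filter favoured these differences; both calls were also made with no filter, and that for injured FAPs was lost without FAP library 2 (-0.88), without injured FAP library 2 (-1.39) and after quantile normalization (-1.19). Its relative Ppargc1b was lower in ASCs (7.90, 13.6 and 8.79) than in FAPs (30.4 and 68.7), and injured FAPs were above ASCs by a log2 fold change of 1.96. Gabpb1, a subunit of the ETS factor GABP, was at 318 and 360.3 in FAPs and 764, 638 and 735 in injured FAPs (1.07), and Tfb1m, a mitochondrial rRNA methyltransferase, at 81.6, 94.5 and 66.4 in injured FAPs and 31.6, 44.2 and 49.0 in ASCs (0.95). The others called, named after their values were seen, were Tfam, which was higher in injured FAPs than in FAPs (0.80) and ASCs (0.68), Polrmt, lower in ASCs than in FAPs (-0.85) and injured FAPs, Gabpb1, also higher in ASCs than in FAPs (1.14), and Pprc1 and Tfb2m, higher in ASCs than in FAPs (0.94 and 0.63) and injured FAPs. Of these, Tfam lost its call against ASCs without injured FAP library 3 (0.57), and for injured FAPs against ASCs Pprc1 lost it without ASC library 1 (-0.33) or injured FAP library 3 (-0.58) and Tfb2m without ASC library 1 (-0.48). Between ASCs and FAPs, Tfb2m lost it without ASC library 1 (0.41), ASC library 3 or FAP library 1 (0.63 in both) or FAP library 2 (0.64). Scaled to a common library total, 0 regulators were higher and 7 lower in ASCs than in FAPs, and 11 higher and 0 lower in injured FAPs than in ASCs.

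Genes known to respond to hypoxia-inducible factor were counted too. Of 11 tested, 5 were higher (45.5%, against 24.9%) and 2 lower (18.2%, against 27.7%) in injured FAPs than in FAPs (median 0.06), 2 higher (18.2%, against 25.0%) and 4 lower (36.4%, against 25.8%) than in ASCs (-0.24), and 6 higher (54.5%, against 23.4%) and 0 lower (0%, against 23.8%) in ASCs than in FAPs (0.85). The glycolytic kinase Pgk1 was at 981 and 964 in FAPs, 4130.2, 4207 and 4772 in injured FAPs and 1392, 1568 and 1373 in ASCs, and the glucose transporter Slc2a1 at 521 and 549 in FAPs, 2121, 2020.4 and 2367 in injured FAPs and 4296, 1828 and 2117 in ASCs. FAPs were lowest for both. The growth factor Vegfa was at 2883 and 3294 in FAPs, 3276, 3030.2 and 3347 in injured FAPs and 19739, 10908 and 13243 in ASCs, and Ndrg1 at 5161 and 4797, 3362, 2746 and 3310.2 and 27165, 12016 and 14035. ASC library 1 was the highest library for Slc2a1, Vegfa and Ndrg1. Named after their values were seen, Ldha, Adm and Higd1a were also higher in injured FAPs than in FAPs, Bnip3 (-0.84) and Egln3 (-1.73) were lower, and in injured FAPs against ASCs Pgk1 and Ldha were higher and Vegfa, Ndrg1, Bnip3 and Egln3 lower. Higd1a lost its call without FAP library 1 (0.65). Egln3 lost that against ASCs without ASC library 1 (-0.81), ASC library 3 (-0.59), FAP library 2 (-0.84), injured FAP library 1 (-0.80) or injured FAP library 2 (-0.73). It was also lost with no filter, with only the 2 groups fitted (-0.84 in both), in edgeR (-0.82), and with a common library total (-0.17) or 75th percentile (-0.73). Egln3 was called lower in ASCs than in FAPs without ASC library 3 (-1.14), with a pseudocount of 8 (-0.77), and with a common library total (-1.45) or 75th percentile (-1.06). It was also so called with replicate number as a block (-1.10), in edgeR (-0.91) and by unadjusted p (-0.89). When scaled to a common library total, 3 of the 11 were higher and 2 lower in ASCs than in FAPs, and 4 higher in injured FAPs than in ASCs. Ndufa4l2 and Cox4i2, the hypoxia-responsive members, were highest in FAPs among these 3 groups. Egln3, chosen after its values were seen, was also lower than in FAPs in injured FAPs (-1.73) and ASCs (-0.89, not called in the main fit). The list did not share this pattern: 6 of the 11 were higher and 0 lower in ASCs than in FAPs. In injured FAPs against FAPs, 5 were higher and 2 lower.

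The promoters of the members, many of which rose together, were read for motifs of factors known to act on respiratory genes. RefSeq windows (GRCm38.p6) of 300 bases, 250 before and 50 after the start, were at hand for 71 of the 88 subunit and cytochrome c genes, in 76 windows. Both strands were searched for NRF1 (GCGCNTGCG), ETS/GABP (CCGGAAG), YY1 (AAGATGGC), Sp1 (GGGCGG) and ERR (TCAAGGTCA), and hits of different motifs could overlap. NRF1 letters occurred in 34.2% of the members' windows, against 6.31% of all 32851 windows of that length. For ETS/GABP the shares were 22.4% and 8.86%, for YY1 13.2% and 2.75%, for Sp1 40.8% and 35.7%, and for ERR 2.63% and 0.423%. By complex, NRF1 letters were found in 9 of 15 complex V genes, 9 of 33 in complex I, 3 of 5 in complex III, 2 of 3 in complex II and 1 of 14 in complex IV. A match is a description of letters and not a bound site.

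The 250 bases before the start are printed for 7 members, 5′ to 3′ on the gene's strand, with matches to the 5 motifs in capitals. The 7 were chosen after their motifs were seen. Cycs (chr6:50566570-50566819, minus strand), Sdha (chr13:74350241-74350490, minus strand), Atp5l (chr9:44920743-44920992, minus strand) and Cox6a1 (chr5:115348959-115349208, minus strand) show NRF1 letters. Among members not printed, Atp5md rose and has an NRF1 match. Atp5b, Cox5a, Cox6b1 and Cox7a2 also rose and have none in these 250 bases. The low isoform Cox6b2, which fell, has an Sp1 match. Cox6a1 holds 3 NRF1 matches, a pair of which overlap, with 1 ETS/GABP and 2 Sp1 matches. Sdha has 3 NRF1 matches, Cycs 1, and Atp5l 1 with an ETS/GABP match close by.
Cycs: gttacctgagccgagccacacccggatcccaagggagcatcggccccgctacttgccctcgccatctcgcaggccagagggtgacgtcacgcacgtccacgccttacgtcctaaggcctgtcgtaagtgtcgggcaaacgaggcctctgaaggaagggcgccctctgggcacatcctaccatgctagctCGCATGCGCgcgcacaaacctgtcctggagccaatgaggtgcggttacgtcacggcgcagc
Sdha: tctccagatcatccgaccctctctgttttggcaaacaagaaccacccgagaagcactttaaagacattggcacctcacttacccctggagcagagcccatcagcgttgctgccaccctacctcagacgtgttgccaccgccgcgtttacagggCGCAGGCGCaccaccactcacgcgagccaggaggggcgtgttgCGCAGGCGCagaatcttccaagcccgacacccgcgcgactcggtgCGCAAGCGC
Atp5l: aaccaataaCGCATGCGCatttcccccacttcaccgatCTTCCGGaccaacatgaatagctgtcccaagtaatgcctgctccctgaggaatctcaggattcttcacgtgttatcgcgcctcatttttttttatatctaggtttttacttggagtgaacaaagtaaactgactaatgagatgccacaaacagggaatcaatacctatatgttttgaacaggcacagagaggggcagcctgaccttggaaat
Cox6a1: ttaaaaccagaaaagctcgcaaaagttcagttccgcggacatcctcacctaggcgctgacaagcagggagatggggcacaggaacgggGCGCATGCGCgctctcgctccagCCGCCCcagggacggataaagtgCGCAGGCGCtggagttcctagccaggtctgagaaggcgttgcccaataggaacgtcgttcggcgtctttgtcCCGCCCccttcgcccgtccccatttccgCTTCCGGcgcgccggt
Ndufa4 (chr6:11907451-11907700, minus strand), which rose, and the low isoforms Cox8b (chr7:140900447-140900696, minus strand) and Cox7a1 (chr7:30183921-30184170, plus strand), which were lowest in injured FAPs, are shown because none of the 5 motifs was found in these 250 bases.
Ndufa4: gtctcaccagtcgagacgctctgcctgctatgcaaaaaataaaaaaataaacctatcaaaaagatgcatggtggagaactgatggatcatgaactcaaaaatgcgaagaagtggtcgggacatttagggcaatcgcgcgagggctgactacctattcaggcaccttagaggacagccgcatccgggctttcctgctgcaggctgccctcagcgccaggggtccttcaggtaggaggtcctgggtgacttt
Cox8b: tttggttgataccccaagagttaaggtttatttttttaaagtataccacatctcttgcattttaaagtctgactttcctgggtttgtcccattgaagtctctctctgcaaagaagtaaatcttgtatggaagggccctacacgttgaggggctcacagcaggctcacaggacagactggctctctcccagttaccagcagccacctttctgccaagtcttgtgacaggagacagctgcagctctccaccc
Cox7a1: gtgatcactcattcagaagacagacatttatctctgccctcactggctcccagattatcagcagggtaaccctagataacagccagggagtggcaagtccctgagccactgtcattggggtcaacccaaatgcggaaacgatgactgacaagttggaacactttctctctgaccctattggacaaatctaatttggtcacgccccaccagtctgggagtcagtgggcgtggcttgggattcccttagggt

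Some members cannot be separated fully from neighbouring genes. In GENCODE M21, 99 members were placed, and exons of 27 of them overlapped exons of another gene, 4 on the same strand and 25 on the opposite strand. Among the named members, Atp5md shares 16 bases with Taf5, Cox5a 269 with Gm26631, Atp5l 133 with Gm30934, Ndufa3 4 with Tfpt and Ndufs1 248 with Ino80dos. Of those named after their values were seen, Uqcrc2 shares 504 with Pdzd9, Atp5j 182 with Gabpa, Ndufb1 147 with Cpsf2 and Uqcrb 50 with Gm10767. All of these are on opposite strands. How reads that map to several places were counted was not stated; Ndufs5 was listed at 0 in every library while its copy Ndufs5-ps was at 3.80 and 1.88 in FAPs, 2.35, 5.42 and 4.58 in injured FAPs and 1.32, 3.40 and 6.28 in ASCs. The copy Ndufb4c, the single copy of the 4 that was tested, was at 18.1 and 14.1, 18.8, 17.8 and 23.6 and 15.8, 15.9 and 11.3 in these groups and passed in no comparison.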

How the data were processed

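Bulk RNA-seq of 9 mouse libraries was read from the deposited table of normalized counts. The authors used HISAT2 for alignment to mm10, featureCounts (Subread) for counts per gene and DESeq2 for normalization, so that each deposited signal value is a read count divided by a size factor; whole reads were recovered within a tolerance of 0.1 for 100% of values in each library. Strandedness and the handling of reads with several alignments were not stated.

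Genes with a mean of at least 10 over the 8 libraries of ASCs, FAPs and injured FAPs (13601) were tested with limma 3.58.1 (trend, R 4.3.3) on log2(value + 1), with 3 groups in 1 fit and 5 residual degrees of freedom, and Benjamini-Hochberg adjustment over all genes tested. Calls needed an adjusted p under 0.05 and an absolute log2 fold change over 0.58. The test was checked on simulated data. Alternatives were pseudocounts of 0.5 and 8, other filters, quantile, library total and 75th percentile scaling, edgeR 4.0.16, DESeq2 1.42.0, replicate number as a block, fits of only the groups compared, annotated subunits only, unadjusted p, and each library left out. The CD31+CD45+ library, single, was described and not tested.

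Members and lists were chosen with earlier results of these data known. Named members were, in each comparison, the 4 largest rises and 4 largest falls among calls without overlap; the isoform families of complex IV; the member of each complex highest per kilobase; Cycs and Cyc1; and the 2 called genes with the largest change of each pathway list. The lists covered respiratory chain assembly factors, biogenesis regulators, pyruvate dehydrogenase and TCA cycle, HIF-responsive genes, mitochondrially encoded subunits, and markers of muscle fibres, leukocytes, endothelium, pericytes and smooth muscle, adipocytes and stroma. Positions, transcript lengths and overlaps were taken from GENCODE M21 and promoter sequences from RefSeq. Floors of 3 reads cover counting error only.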

Additional observations from a re-analysis of the deposited data

Results flagged for a closer look

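In the CD31+CD45+ library of glycerol-injected quadriceps, which entered no comparison, 3 low complex IV isoforms were more than 2 times as high as in any other library. Cox4i2 was at 467.7, against at most 118 in the other 8 libraries. Cox6a2 was at 138.1, against at most 39.0, and Cox7a1 was at 51.79, against at most 25.1. The same library had the highest summed pericyte and smooth muscle markers (80394) and skeletal muscle fibre markers (4733), and the part of either in these values was not tested. The library has no replicate, so these values carry no test.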

How the results depend on the processing

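Each count and median over the members was recomputed under 13 alternatives with every library and with each of the 8 libraries left out in turn. Of the 189 values, 172 stayed within 1.5 times the main count, or within 1 SD of library medians (0.0850) for a median; for the others the cause was not tested. With a common library total, ASCs against FAPs gave 0 members higher, 16 lower and a reversed median of -0.29, injured FAPs against FAPs gave a median of 0.87, and injured FAPs against ASCs gave 82 higher, 2 lower and a median of 1.18. With a common 75th percentile, ASCs against FAPs gave 7 higher and a median of 0.11, and injured FAPs against ASCs a median of 0.59, as edgeR did with 0.57. Quantile normalization left 14 members higher in ASCs than in FAPs. With a minimum mean of 50, which tests fewer genes, 2 members were lower in each comparison. Leaving out 1 library gave 2 to 5 members lower in ASCs than in FAPs, the lowest without FAP library 1, and 3 to 5 lower in injured FAPs than in ASCs, the lowest without ASC library 3. The members higher then ranged from 15 to 24 in ASCs against FAPs, 53 to 66 in injured FAPs against FAPs and 31 to 43 in injured FAPs against ASCs. A FAP library left alone was assumed to vary like the other groups.

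With replicate number as a block, 23 members were higher and 3 lower in ASCs than in FAPs (median 0.27), 58 higher and 5 lower in injured FAPs than in FAPs (0.76), and 37 higher and 4 lower in injured FAPs than in ASCs (0.48). Deviations of libraries with the same number correlated across genes at only -0.054 to 0.045, so the numbers gave no sign of a pairing.

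For the named members, 75 fold changes had 1473 alternative values, of which 1357 kept direction and side of the threshold, 61 lost a call, 28 gained one, 26 changed sign without a call and 1 reversed (Atp5b in ASCs against FAPs, -0.068 after quantile normalization). Of the 46 calls, 16 were lost under at least 1 alternative. Depth limited Cox6a2, Cox7a1 and Cox8b, with 4 to 62 reads in a group. Below the minimum mean, 5 low isoforms had no value at 50, Cox7a1 none without ASC library 2 or 3, Cox8b none without ASC library 3 and Cox6a2 none without FAP library 1.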

Other observations

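In the CD31+CD45+ library the members made up 0.445% of all values, between the shares of FAPs and injured FAPs. Of the 94 members tested elsewhere, 14 were above all 8 other libraries (14.9%, against 28.3% of all genes tested) and 4 were below all of them (4.26%, against 25.8%). Beside Cox4i2, Cox6a2 and Cox7a1, the largest excess over the highest other library was that of Ndufa8, at 1365 against 951, followed by Atp5j, at 1623 against 1267. Endothelial markers were abundant in this library (Cdh5 at 98652), and Ptprc, the gene of CD45, was at 797.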
